A study of Mus musculus with 8 samples.

Results

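Claudins and their partners at the tight junction were read in Paneth cells, which lie at the bottom of intestinal crypts and secrete antimicrobial proteins. The set held 10 genes, taken as the rows of the count table whose Ensembl identifiers map to Cldn1, Cldn2, Cldn3, Cldn4, Cldn7, Cldn15, Cldn23, Ocln, Tjp1 and F11r, out of 55414 rows in all. Of these genes, 9 passed the filter on low counts, and Cldn1 did not. The filter left 11929 genes for testing.

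Paneth cells were collected from mouse small intestine by flow sorting, and their RNA was sequenced in bulk with a stranded mRNA kit. The TG group, genotype DT TG in the labels, held 4 libraries of Paneth cells from mice with a diphtheria toxin transgene. Diphtheria toxin is a protein that stops translation in the cell that holds it. The series is titled as a profile of cells sorted after mature Paneth cells were depleted, while the labels call the cells of both groups purified Paneth cells. The WT group held 4 libraries of Paneth cells from wild type mice. The study's methods describe C57BL/6J mice and cells from individual animals for its sorted samples. The promoter of the toxin transgene, the line, and the age of the mice were not given in the sources used here, and the toxin transcript was not analysed here. Because these are bulk samples, fewer cells of a type and less RNA per cell cannot be told apart.

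Tight junctions join epithelial cells near their apical side and set which ions and molecules pass between them. Claudins are the membrane proteins that form the strands. Some of them, such as claudin-2 and claudin-15, form pores that let small cations through, while others, such as claudin-3 and claudin-4, seal the space. Occludin (Ocln) and junctional adhesion molecule A (F11r) are further membrane proteins of the junction, and ZO-1 (Tjp1) is the scaffold that ties the strands to actin. In the intestine claudin-2 is known as a claudin of the crypt, and claudin-15 is found along crypt and villus.

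Levels are given as counts per 1000000 (CPM) of a library total scaled by its TMM factor, which corrects for composition. Total counts ranged from 13107397 to 16218434 per library and TMM factors from 0.845 to 1.10. Summed over Uty, Kdm5d, Eif2s3y and Ddx3y, which lie on the Y chromosome, there were 0 counts in replicates 1 and 2 of either group and 897 to 1564 counts in replicates 3 and 4, so that each group held both kinds of library in equal number. Paneth markers (Lyz1, Mmp7, Ang4, Itln1, Mptx2, Defa24, Defa30 and Nupr1) summed to 370948 to 455506 CPM in TG and 352012 to 531019 CPM in WT. Most of these sums came from Lyz1 (mean 175230 CPM in TG and 166391 in WT) and Defa24 (120720 and 137964). In edgeR's test of TG against WT, 3 of these 8 markers passed as lower and 0 as higher, beside 9.65% and 8.26% of all tested genes. Their log2 fold changes were -1.35 for Mptx2, -0.59 for Mmp7 and -0.57 for Ang4. Within replicates 3 and 4 alone 0 of the 8 passed in edgeR, with 1 at an unadjusted p under 0.05, in a fit where 0.94% of all tested genes rose and 0.865% fell.

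Because Cldn2 was the member that changed, the reference sequence before its start is shown beside that of Cldn15, the other pore-forming claudin in the set. Both were taken from the RefSeq table of 250 bases before each start (build GRCm38.p6) and matched the GRCm39 genome exactly at 1 place. They are given 5′ to 3′ and end at the last base before the start of the canonical GENCODE transcript, which leaves out 77 bases for Cldn2 and 57 for Cldn15. The Cldn2 stretch lies at chrX:138701307-138701479 and the Cldn15 stretch at chr5:136996473-136996665 (GRCm39, plus strand), where the latter is within an intron of a Cldn15 transcript that starts further upstream. Capitals mark the letters TTTATG, which the caudal factor Cdx2 can bind.
Cldn2: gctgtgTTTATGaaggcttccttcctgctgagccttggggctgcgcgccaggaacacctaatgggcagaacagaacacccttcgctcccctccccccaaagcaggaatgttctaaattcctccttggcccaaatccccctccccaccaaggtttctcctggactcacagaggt
Cldn15: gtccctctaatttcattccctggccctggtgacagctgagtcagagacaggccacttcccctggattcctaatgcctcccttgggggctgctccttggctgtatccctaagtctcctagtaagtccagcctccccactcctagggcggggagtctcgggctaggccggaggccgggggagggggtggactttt

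Letters for 4 motifs were searched on both strands of the full 250 bases, with no overlap between the matches. In Cldn2, TTTATG began 244 bases before the RefSeq start, and TATAAA, the letters of a TATA box, began 35 bases before it, in the bases left out above. The Cldn15 window held neither of these, nor GTTAAT (letters bound by Hnf1 factors), nor AGATAA (letters bound by Gata factors). Of the 9 members in the table, Cldn2 alone held the TATA letters or the Cdx2 letters, Cldn1 alone held the Hnf1 letters, and none held the Gata letters. For comparison, 12.4% of all 32851 promoters in the table held the TATA letters, 10.8% the Cdx2 letters, 6.43% the Hnf1 letters and 9.99% the Gata letters. A match describes letters in a window and is not a binding site shown to be used.

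Whether junction genes differ between sorted Paneth cells of DT TG and wild type mice was asked by comparing TG with WT. Cldn2 was lower in TG and passed the test, while the other 8 tested members did not. In TG replicates 1 to 4, Cldn2 stood at 188, 159, 209 and 153 CPM. The WT replicates 1 to 4 stood at 458, 383, 268 and 283 CPM. All 4 TG libraries lay below all 4 WT libraries, and within WT replicates 1 and 2 lay above replicates 3 and 4. Cldn2 (ENSMUSG00000047230, chrX:138701480-138712135 in GRCm39, plus strand) averaged 177 ± 26.2 CPM in TG and 348 ± 89.3 CPM in WT (SD, n = 4 each), a level 1.96 times as high in WT. The log2 fold change was -0.97 (SE 0.17, 95% interval -1.34 to -0.60), with an adjusted p of 0.00346 (edgeR's quasi-likelihood test, Benjamini-Hochberg adjustment over 11929 genes). Its raw counts were 2014 to 3706 in TG and 3800 to 5731 in WT, so depth was not the limit for this gene.

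The count of members that passed was near the background of the table. Of 9 tested members, 1 (11.1%) fell and 0 rose, while 9.65% of all tested genes fell and 8.26% rose. Cldn2 ranked 312 of 11929 by p, so that 2.62% of tested genes had a p at or below its own. Of the 9 members 7 had a fitted level lower in TG and 2 higher. Their median log2 fold change was -0.15, beside 0.0093 for all tested genes. With library totals in place of TMM factors, the median of all genes moved to 0.12 and the genes called went from 985 higher and 1151 lower to 787 higher and 262 lower. Cldn2 kept its call under that scaling (log2 fold change -0.83, edgeR adjusted p = 0.00601). It was also the only member whose CPM ranges did not overlap between the groups, which 12% of tested genes showed with TG lower and 22% in either direction.

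**Figure D1:**
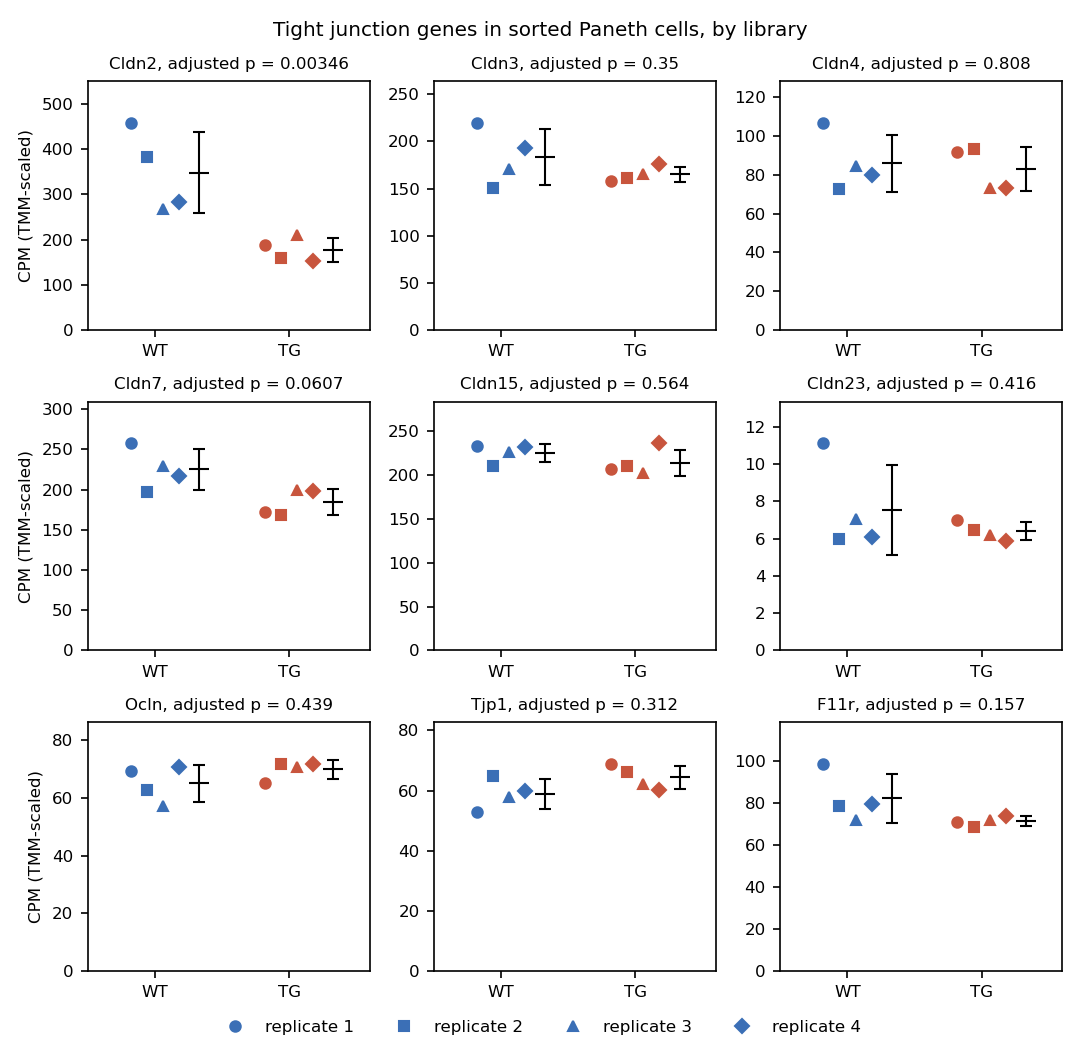
TMM-scaled CPM (vertical axes, each from 0) of the 9 tested members in each WT (blue) and TG (red) library, with the marker shape giving the replicate and black bars the mean ± SD of 4 libraries. The TG libraries of Cldn2 sit between 153 and 209 CPM, below the 268 to 458 CPM of WT, while in the other 8 panels the groups overlap.

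Replicates 1 and 2, without Y-linked counts, and replicates 3 and 4, with them, were also compared separately. In replicates 1 and 2, Cldn2 averaged 174 CPM in TG and 421 CPM in WT. The log2 fold change within these 4 libraries was -1.28 (SE 0.16, edgeR adjusted p = 0.000574), where 4.15% of all tested genes rose and 5.29% fell. In replicates 3 and 4 it averaged 181 CPM in TG and 276 CPM in WT, with a log2 fold change of -0.60 (SE 0.15) and an edgeR adjusted p of 0.0731. The TG means were thus close in both subsets, and the WT means lay farther apart. The fold changes of the subsets differed by 0.67 on the log2 scale (SE 0.23), with an edgeR adjusted p of 0.738. Cldn2 was the only member with an unadjusted p under 0.05 for that difference, a level that 5.73% of tested genes reached, and 3 genes of the table passed after adjustment (0.0251%). Within replicates 3 and 4 alone, 0 of 9 members passed in edgeR and 1 had an unadjusted p under 0.05, where 0.94% of all tested genes rose and 0.865% fell.

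Among the sealing claudins, Cldn7 came nearest to the threshold. Claudin-7 lies along the lateral membrane as well as at the junction. In TG replicates 1 to 4, Cldn7 stood at 172, 169, 199 and 198 CPM, and in WT replicates 1 to 4 at 257, 196, 229 and 217 CPM. WT replicate 2 lay just below the highest TG libraries, so the ranges overlapped. The log2 fold change of Cldn7 (chr11:69852648-69858711, plus strand) was -0.29 (SE 0.10, 95% interval -0.50 to -0.072), with an unadjusted p of 0.0122 and an edgeR adjusted p of 0.0607. It passed in DESeq2 (adjusted p = 0.0347, with 9.89% of its tested genes lower), in limma voom with quality weights (0.0408, 11.1%) and in edgeR without WT replicate 2 (0.0286, 9.76%). With library totals in place of TMM factors its log2 fold change was -0.17 and the edgeR adjusted p 0.354. A part of the gene, 331 exon bases, is shared with Elp5 on the opposite strand, which had 257 to 387 counts per library and a log2 fold change of -0.36 (adjusted p = 0.0274). The kit was stranded, but whether strand was used in counting is not given, so that reads of the overlapping strands could be mixed. Ocln and F11r also share 167 and 178 exon bases with noncoding genes on the opposite strand.

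Cldn3, a sealing claudin made from a single exon (chr5:135015068-135016326, plus strand), stood at 158, 161, 166 and 176 CPM in TG replicates 1 to 4. Its level in WT replicates 1 to 4 was 219.7, 151, 170.4 and 193 CPM. The 4 TG libraries lay within the WT range. For Cldn3 the log2 fold change was -0.15 (SE 0.11, 95% interval -0.38 to 0.079, edgeR adjusted p = 0.350). It was -0.055 without WT replicate 1 and -0.022 with library totals. The interval leaves room for a fall smaller than that of Cldn2 and for a small rise. The opposite strand holds Wbscr25, a noncoding gene that shares 906 exon bases with Cldn3 and had at most 8 counts in a library.

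Cldn4, another single-exon sealing claudin close to Cldn3 on chromosome 5 (134973973-134975788, minus strand), was nearly level between the groups. In TG replicates 1 to 4 it stood at 91.8, 93.4, 73.3 and 72.9 CPM. The WT replicates 1 to 4 had 106.7, 72.8, 84.4 and 79.6 CPM. Within TG, replicates 1 and 2 were higher than replicates 3 and 4, and WT spanned both. The fitted log2 fold change was -0.051 (SE 0.12, 95% interval -0.32 to 0.21, edgeR adjusted p = 0.808), and the sign turned with library totals (0.078).

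Cldn15, the cation pore claudin of crypt and villus (chr5:136995470-137004712, plus strand), did not pass the test. In TG replicates 1 to 4 it stood at 207, 210.1, 202 and 236 CPM. For WT replicates 1 to 4 the values were 233, 211, 227 and 232 CPM. The highest single library was TG replicate 4, and the groups overlapped. Cldn15 had a log2 fold change of -0.077 (SE 0.086, 95% interval -0.26 to 0.11, edgeR adjusted p = 0.564), with the sign turned under library totals (0.036). The 95% intervals of Cldn2 and Cldn15 did not overlap. The difference between the genes itself was not tested. The ratio of Cldn2 to Cldn15, both as CPM per kb of exon, was 0.577, 0.480, 0.655 and 0.411 in TG replicates 1 to 4. In WT replicates 1 to 4 the ratio was 1.25, 1.15, 0.750 and 0.772. The Cldn2 transcript was thus more abundant per length than the Cldn15 transcript in WT replicates 1 and 2 and less abundant in the other 6 libraries.

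Cldn23 and Cldn1 were the rarest members. Cldn23 (chr8:36291866-36293713, minus strand) stood at 7.01, 6.47, 6.21 and 5.85 CPM in TG replicates 1 to 4 and at 11.1, 5.99, 7.03 and 6.10 CPM in WT replicates 1 to 4. A single library, WT replicate 1, lay above all others. The log2 fold change of -0.24 (SE 0.19, 95% interval -0.65 to 0.17, edgeR adjusted p = 0.416) became 0.0011 without that library. Cldn1, the barrier claudin of the skin (chr16:26175392-26190596, minus strand), had 2 counts in WT replicate 4 and 0 counts in the other 7 libraries. A count of 0 allows up to 3 counts, or 0.185 to 0.229 CPM of the library total without its TMM factor, which covers counting error only. Cldn1 was not detectable in the 4 TG libraries at this depth.

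The membrane partners and the scaffold did not pass the test. Ocln (chr13:100630334-100689535, minus strand) stood at 65.1, 71.8, 70.9 and 71.8 CPM in TG replicates 1 to 4, and at 69.4, 63.0, 57.2 and 70.9 CPM in WT replicates 1 to 4. Its log2 fold change was 0.10 (SE 0.088, 95% interval -0.084 to 0.29, edgeR adjusted p = 0.439). The groups overlapped, since WT replicates 1 and 4 reached the TG level.

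Tjp1, the ZO-1 scaffold (chr7:64945898-65177529, minus strand), stood at 68.9, 66.2, 62.3 and 60.4 CPM in TG replicates 1 to 4, and at 52.8, 64.8, 58.0 and 59.9 CPM in WT replicates 1 to 4. Its log2 fold change was 0.13 (SE 0.087, 95% interval -0.055 to 0.32, edgeR adjusted p = 0.312). Ocln and Tjp1 were the only members fitted higher in TG, and neither passed the test.

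F11r, the adhesion molecule JAM-A (chr1:171265092-171292958, plus strand), stood at 71.0, 68.3, 72.0 and 73.9 CPM in TG replicates 1 to 4. Its WT replicates 1 to 4 had 98.6, 78.4, 71.9 and 79.6 CPM. The 4 TG libraries were within 68.3 to 73.9 CPM, and the WT libraries spread from there upward to replicate 1. F11r had a log2 fold change of -0.20 (SE 0.097, 95% interval -0.41 to 0.0033, edgeR adjusted p = 0.157). WT replicate 1 was the highest WT library in 7 of the 9 tested members with TMM-scaled CPM, and in 2 of 9 with CPM of library totals. That library had the lowest TMM factor, 0.845. Without it the log2 fold change of F11r was -0.107 (edgeR adjusted p = 0.396) and that of Cldn2 was -0.81 (0.00352).

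Per length, the members spanned a wide range of levels, and the order was much the same in both groups. In CPM per kb of exon, the mean level of Cldn3 was 131 ± 6.29 in TG and 146 ± 23.6 in WT, the highest of the members in both (SD, n = 4 each). Cldn15 followed at 98.2 ± 7.02 in TG and 104 ± 4.74 in WT. Cldn7 had 87.3 ± 7.61 in TG and 107 ± 12.1 in WT. These claudins exchanged places 2 and 3 between the groups, and their ranges overlapped within each group.

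Cldn2 took place 4 in both groups, with 51.6 ± 7.61 CPM per kb in TG and 101 ± 26.0 in WT. Its neighbours in that order differed between the groups. In TG, its libraries (44.6 to 60.9 CPM per kb) overlapped those of Cldn4 (40.1 to 51.4) and lay below those of Cldn7 (79.9 to 94.2). In WT, its libraries (78.1 to 133 CPM per kb) overlapped those of Cldn7 (93.0 to 122), Cldn15 (96.8 to 107) and Cldn3 (119.7 to 174) and lay above those of Cldn4 (40.1 to 58.8).

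The remaining members were lower on the same scale. F11r had 20.6 ± 0.671 CPM per kb in TG and 23.7 ± 3.32 in WT, Tjp1 had 8.13 and 7.43, Ocln had 7.45 and 6.94, and Cldn23 had 3.46 and 4.09. Tjp1 and Ocln overlapped within each group. With the length of the canonical transcript alone in place of all exons, Cldn7 came first, Ocln and Tjp1 changed places, and Cldn2 kept place 4 in both groups.

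The claudins together amounted to 423 ± 10.6 CPM per kb in TG and 514 ± 63.8 in WT. Cldn2, Cldn3, Cldn4, Cldn7 and Cldn15 made up 97.6% to 98.3% of that sum in every library. The share of Cldn2 was 13.1%, 11.2%, 14.2% and 10.2% in TG replicates 1 to 4. The same share in WT replicates 1 to 4 was 21.9%, 23.8%, 16.2% and 16.5%. The ranges did not overlap, with means of 12.2 ± 1.79% in TG and 19.6 ± 3.80% in WT. Shares sum to a whole, so a smaller share of Cldn2 goes with larger shares of others. The mean share of Cldn3 was 31.0% in TG and 28.3% in WT, that of Cldn15 was 23.2% and 20.3%, that of Cldn4 was 10.8% and 9.17%, and that of Cldn7 was 20.6% and 20.8%.

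**Figure D2:**
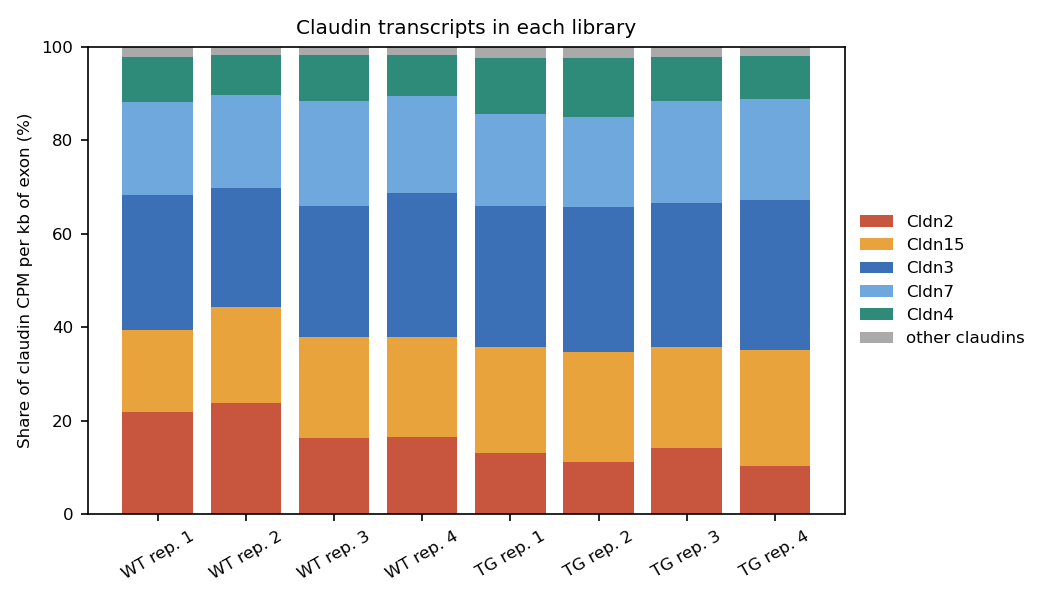
Share of each claudin (percent, vertical axis) in the sum of claudin CPM per kb of exon, as stacked bars for each of the 8 libraries. The Cldn2 share at the base of the bars is 16.2% to 23.8% in WT and 10.2% to 14.2% in TG, with 5 claudins making up nearly the whole of every bar.

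Of the 29 claudin genes outside the set, 21 had 0 counts in all 8 libraries, among them Cldn5, the claudin of blood vessels. Cldn12 was the most abundant per length, at 39.6 ± 2.18 CPM in TG and 41.1 ± 4.16 CPM in WT (log2 fold change -0.054, SE 0.092, edgeR adjusted p = 0.718). Cldn9 was the only other one tested, at 1.51 ± 0.846 CPM in TG and 1.11 ± 0.392 CPM in WT (log2 fold change 0.46, SE 0.41, edgeR adjusted p = 0.465). Neither passed the test. Cldn6 and Cldn8 had 0 to 18 and 3 to 26 counts per library.

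The other junction genes were read from 6 lists, the other claudins included. Of their 104 genes 70 were tested and 12 were called, 5 higher and 7 lower, or 17.1% beside 17.9% of all tested genes. The median log2 fold change of the 70 was 0.022. All 12 kept their direction under each of the 22 alternatives tried. The calls were less firm. With library totals only Magi1, Marveld1 and Ppl of them passed, all higher in TG, and 0 passed lower, where 6.6% of all tested genes rose and 2.2% fell. Without TG replicate 1 the count was 2 higher and 1 lower, beside 4.44% and 4.58% of all tested genes. Without TG replicate 2 it was 1 higher and 2 lower, beside 4.01% and 4.72%.

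Among 34 other tight junction genes, 28 were tested, and 3 rose and 3 fell, beside 8.26% and 9.65% of all tested genes. The median log2 fold change of the 28 was 0.042. Magi1, a scaffold of the junction, was higher in TG, at 37.1 ± 0.872 CPM against 24.3 ± 4.95 CPM in WT (log2 fold change 0.60, SE 0.12, edgeR adjusted p = 0.0049). Marveld1, whose protein has the MARVEL domain that occludin also has, was higher by 0.48 on the log2 scale (adjusted p = 0.0284). Whether its protein lies at the junction was not examined here. Cgnl1 (paracingulin), which links junctions to small GTPases, was higher by 0.61 (log2, adjusted p = 0.0416). Ybx3 (ZONAB), a factor that ZO-1 binds, fell by 0.38 on the log2 scale, from 158 ± 18.4 to 122 ± 6.25 CPM (adjusted p = 0.0146). Esam, an adhesion molecule best known from endothelium, was lower by a log2 fold change of -0.56 (adjusted p = 0.0317), and the atypical protein kinase C gene Prkci by one of -0.27 (adjusted p = 0.0378). Of the 22 alternatives, the call was lost in 14 for Cgnl1, whose ranges overlapped, in 15 for Prkci, 8 for Esam, 6 for Ybx3, 5 for Marveld1 and 2 for Magi1. With the replicate block the edgeR adjusted p was 0.0532 for Cgnl1 and 0.0565 for Prkci.

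Of the 3 most abundant of these genes per length, Ybx3 passed, as given above, and Epcam and Lsr did not. Epcam stood at 554 ± 14.0 CPM in TG and 573 ± 22.5 CPM in WT (log2 fold change -0.049, edgeR adjusted p = 0.734). Lsr (angulin-1), which marks corners where 3 cells meet, stood at 166 ± 17.2 CPM in TG and 204 ± 24.3 CPM in WT (log2 fold change -0.30, adjusted p = 0.0569). Jam3 had 0 counts in all libraries.

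Of 13 adherens junction genes, all tested, 0 passed in edgeR, beside 8.26% higher and 9.65% lower of all tested genes. In that fit 3 had an unadjusted p under 0.05. DESeq2 called 1 lower, beside 9.89% of its tested genes, and voom called 0. The median log2 fold change was 0.037. E-cadherin (Cdh1) stood at 449 ± 8.61 CPM in TG and 495 ± 25.0 CPM in WT, without overlap, and had a log2 fold change of -0.14 and an edgeR adjusted p of 0.268. Beta-catenin (Ctnnb1) had a log2 fold change of 0.037 (adjusted p = 0.809), and the intestinal cadherin Cdh17 one of -0.24 (adjusted p = 0.0757).

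Of 8 desmosome genes 2 rose and 2 fell, beside 8.26% and 9.65% of all tested genes, with a median log2 fold change of -0.11. Within replicates 3 and 4 alone 0 of the 8 passed in edgeR, beside 0.94% and 0.865%, and 3 had an unadjusted p under 0.05. The plakin genes Ppl and Evpl rose by 0.57 (adjusted p = 0.0165) and 0.69 (adjusted p = 0.0497) on the log2 scale, both from under 10 CPM. The desmosomal cadherin Dsc2 and the plaque protein Pkp2 fell by 0.42 (adjusted p = 0.00659) and 0.27 (adjusted p = 0.0397) on the same scale. The call of Evpl was lost in 17 of 22 alternatives, DESeq2 (adjusted p = 0.0503), voom (0.0692) and the replicate block (0.0584) among them. That of Pkp2 was lost in 13, the replicate block among them (edgeR adjusted p = 0.0505), that of Ppl in 5 and that of Dsc2 in 3. The abundant plaque protein Dsp stood at 281 ± 6.13 CPM in TG and 229 ± 29.9 CPM in WT, without overlap, with an adjusted p of 0.0519. The desmosomal cadherin Dsg2 stood at 145 ± 6.76 CPM in TG and 169 ± 15.4 CPM in WT (log2 fold change -0.22, adjusted p = 0.0972).

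Of the 11 tested actomyosin genes under the junction, 1 fell and 0 rose, beside 9.65% and 8.26% of all tested genes. It was Rhoa, with a log2 fold change of -0.29 (edgeR adjusted p = 0.0412), a call lost in 10 of 22 alternatives. Myh9, Actn4 and Actn1, the most abundant per length, had log2 fold changes of -0.052, -0.16 and -0.054 and did not pass. Myh10, the heavy chain of nonmuscle myosin IIB, was removed by the filter and is named here after its values were seen. It had 1179, 2224, 1435 and 1 counts in TG replicates 1 to 4 and 0, 2, 4 and 0 in WT replicates 1 to 4, or 73.8, 156, 81.0 and 0.0760 CPM in TG and at most 0.268 CPM in WT. TG replicates 1 to 3 were thus far above all WT libraries, while TG replicate 4 lay within the WT range. DESeq2, without that filter, called Rhoa lower and also Myh10 higher, beside 9.89% lower and 8.08% higher of its tested genes. As Myh10 was picked for its values and TG replicate 4 lay at the WT level, that call is given no weight.

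Of 8 factors known to act on claudin genes, 1 fell and 0 rose, beside 9.65% and 8.26% of all tested genes. It was Elf3, an epithelial ETS factor, with a log2 fold change of -0.30 (edgeR adjusted p = 0.0464), a call lost in 11 of 22 alternatives. Voom, where 11.1% of all tested genes fell, called 0 of the 8. Cdx1, the intestinal homeobox factor, stood at 119 ± 7.21 CPM in TG and 135 ± 16.2 CPM in WT (log2 fold change -0.17, adjusted p = 0.227). Hnf4a, a nuclear receptor of the gut epithelium, stood at 321 ± 4.72 and 320 ± 31.8 CPM (log2 fold change 0.0044, adjusted p = 0.979). Cdx2, whose letters are shown in the Cldn2 sequence above, stood at 70.2 ± 4.79 CPM in TG and 62.9 ± 7.75 CPM in WT, with a log2 fold change of 0.16 and an edgeR adjusted p of 0.268, and was chosen for that reason and not by level.

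**Figure D3:**
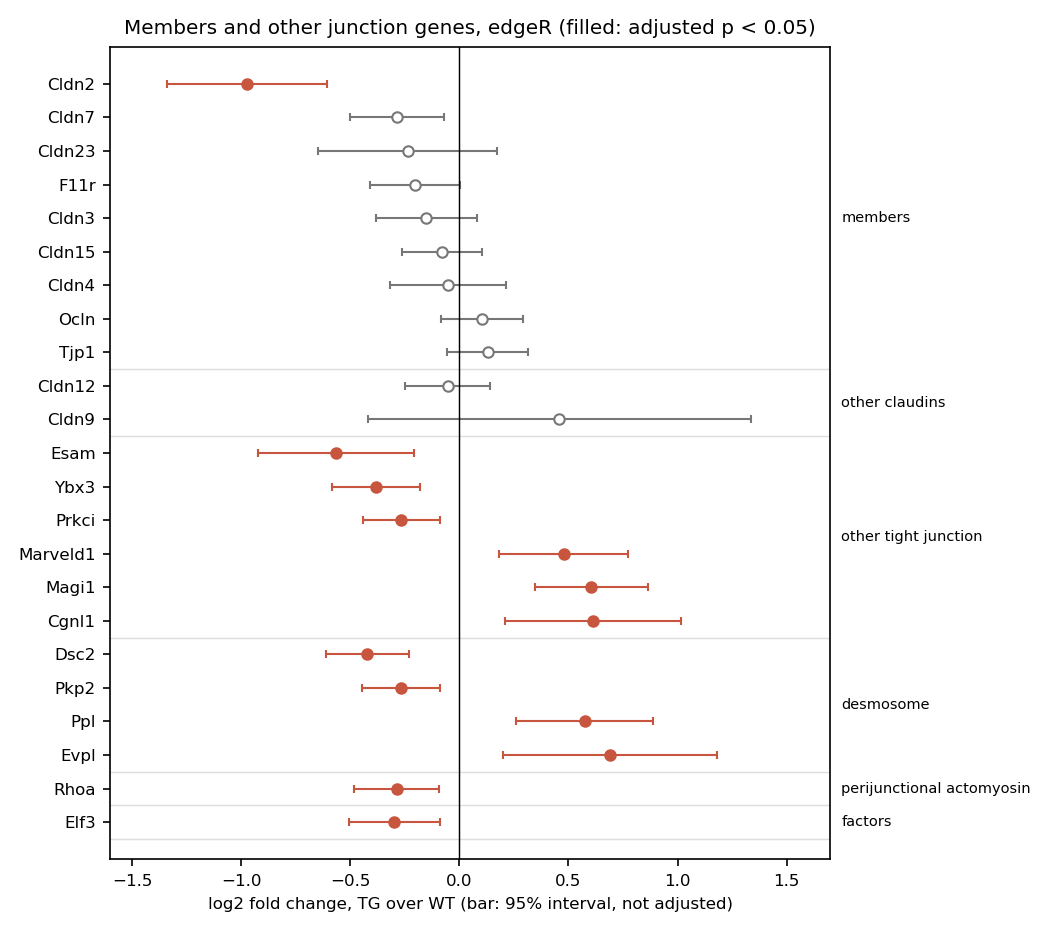
Log2 fold change of TG over WT from edgeR (horizontal axis) with its unadjusted 95% interval, for the 9 tested members, the tested other claudins and the called genes of the other junction lists. Filled points passed at an adjusted p under 0.05, and Cldn2 at -0.97 lies farthest from 0 among them.

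Of 11 enterocyte markers 10 were tested in edgeR, where 4 rose (Alpi, Apoa4, Apob and Mttp) and 0 fell, beside 8.26% and 9.65% of all tested genes. DESeq2 called 8 of 11 higher (8.08% of all its tested genes) and voom 3 of 10 (9.96%), and 3 of 11 passed as higher in edgeR within replicates 3 and 4 (0.94%). Their summed level was 493 to 668 CPM in TG and 328 to 429 CPM in WT, without overlap. Anpep, which was not called (edgeR adjusted p = 0.256), made up most of that sum, with 361 ± 39.8 CPM in TG and 315 ± 44.5 CPM in WT. Of 5 stem cell markers 1 rose (Axin2) and 1 fell (Smoc2). The 7 goblet markers gave 0 calls in edgeR, DESeq2 and voom and 1 unadjusted p under 0.05 in edgeR over all 8 libraries, with sums of 8557 to 11846 CPM in TG and 10757 to 12513 CPM in WT. Within replicates 3 and 4, 1 of them was called higher in edgeR and 3 had an unadjusted p under 0.05. Of the other lists, 0 of 5 tuft and 0 of 3 tested enteroendocrine markers passed in edgeR, with 0 at an unadjusted p under 0.05 in either list. Of the endothelial markers Cldn5, Cdh5 and Kdr were at 0 in all libraries and Esam was the only one tested. The immune markers summed to 8.82 to 30.03 CPM in TG and 12.4 to 18.8 CPM in WT, nearly all of it Lyz2 (19.6 ± 9.63 and 14.5 ± 2.88 CPM, edgeR adjusted p = 0.484), with Adgre1 at 0. The stromal sum was at most 0.313 CPM, with Col1a2 at 0. The part of the enterocyte and Paneth marker differences in the level of Cldn2 or the other members was not tested.

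The genes whose levels ran most closely with the 3 most abundant members per length were taken by Pearson's correlation of log2(CPM + 0.5) over the 8 libraries. These values describe 8 libraries of 2 groups, which share their scaling, and carry no test. For Cldn3 they were Rps14 (r = 0.968), Rpl36 (0.967) and Ppp1ca (0.963). For Cldn15 they were Laptm4b (0.969), Ndufaf8 (0.964) and Gnpat (0.951). For Cldn7 they were Gapdh (0.988), Hnrnpk (0.985) and Vdac2 (0.985). For Cldn2, added after its values were seen, they were Nfkb1 (0.996), Tifa (0.986) and Ripk1 (0.986). Their log2 fold changes were -0.25, -1.25 and -0.32, a direction that follows from choosing them for their likeness to Cldn2. Between members, Cldn2 ran with F11r at r = 0.82 and with Cldn15 at 0.25, and Cldn7 and Tjp1 ran against each other at -0.96.

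**Figure D4:**
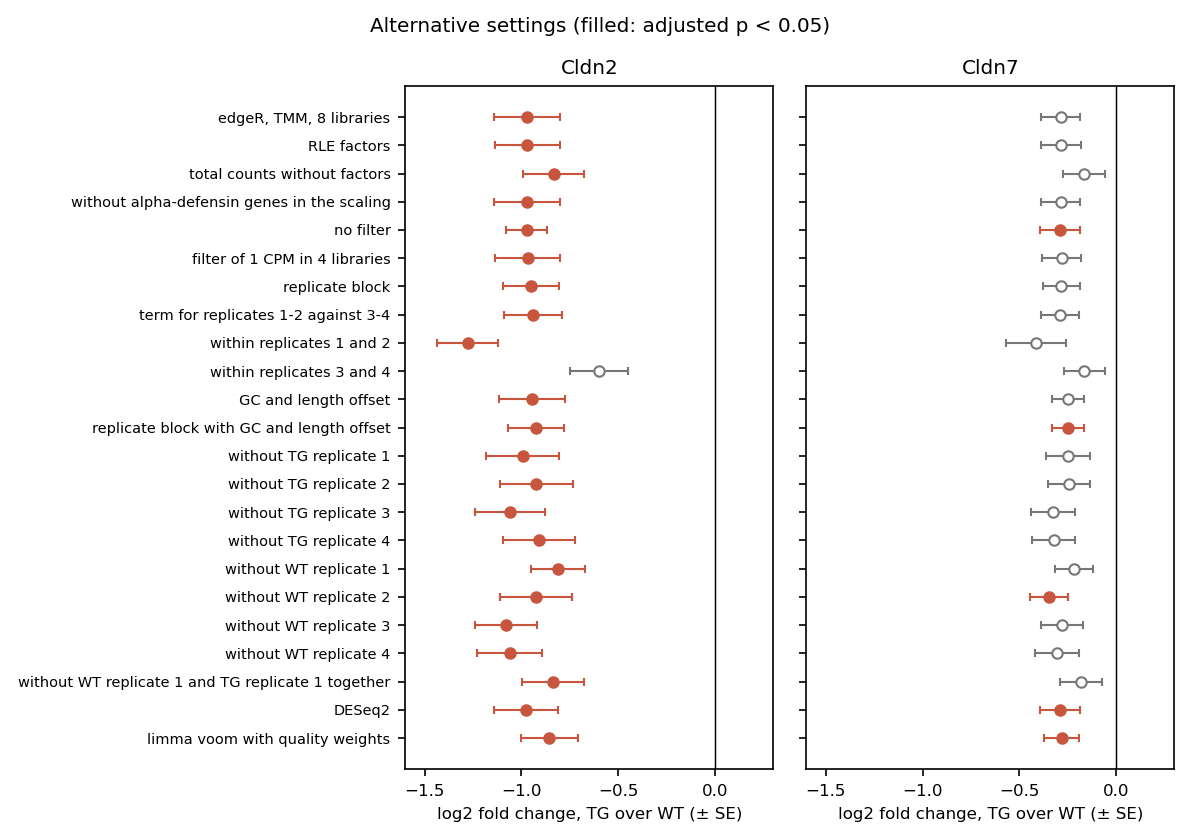
Log2 fold change of TG over WT (horizontal axes, ± SE) of Cldn2 and Cldn7 under the reported setting and 22 alternatives, with filled points for an adjusted p under 0.05. Cldn2 stays between -1.28 and -0.60 and loses its call only within replicates 3 and 4, while Cldn7 passes in 5 of the 22 alternatives.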

How the data were processed

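The counts used were deposited by the authors as 1 table of whole numbers, with an Ensembl gene in each row and a column for each of 8 libraries. Per the submitters' processing notes, FastQC 0.12.0, STAR 2.7.0a and DESeq2 were used with the mm39 build. How reads were counted, with which strand setting and on which annotation, is not given in the sources used here. Symbols, positions and exon lengths were taken from GENCODE M39 (GRCm39), which matched 54749 identifiers and left 665 unmatched.

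The edgeR package (4.0.16, R 4.3.3) was used to test all 8 libraries at once, with the group as term. Counts were filtered by filterByExpr, scaled by TMM and fitted by the robust quasi-likelihood method, and p-values were adjusted after Benjamini-Hochberg, with a threshold of 0.05. Intervals are unadjusted, at 95%, and standard errors are the fold change divided by the root of its F statistic. P-values measure the spread between these libraries. Alternatives were DESeq2 1.42.0, limma 3.58.1 (voom), other scalings and filters, a replicate block, fits within replicates 1 and 2 and within 3 and 4, an offset for GC content and exon length, and leaving out each library. Replicates differed beyond sampling noise (chi-square per degree of freedom at least 5.20), so all 8 were used.

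The steps were tested on simulated data for TG against WT. With 11929 genes, of which 11789 were tested, 200 were given a log2 change of size 1, and the fit recovered 166 of them (83%) and made 12 false calls. The simulation changed fewer genes than were called in the data, where 17.9% passed, and changed them equally up and down with independent noise. It therefore cannot show how well the scaling or the replicate subsets were handled.

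The members, the lists and the rule for named genes were chosen with earlier results of these data known. The rule named all members, the called genes of each junction list (at most 8) and its 3 most abundant per length, and the 3 genes most correlated with the 3 most abundant members. The genes correlated with Cldn2, and Cdx2, Cldn8, Jam3 and Myh10, were outside the rule and named after their values were seen.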

Additional observations from a re-analysis of the deposited data

Results flagged for a closer look

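Of 18 groups of 4 libraries (9 members in TG and in WT), 1 held a library set apart from the others: Ocln in TG replicate 1 stood at 65.1 CPM, with the other 3 TG libraries at 70.9 to 71.8 CPM. The gap to the nearest library was 0.859 of the range of the group. Chance alone sets apart about 1 group in 20, or 0.9 of the 18 examined.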

How the results depend on the processing

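Over 22 alternatives, 198 values of the 9 tested members were recomputed: 183 kept their direction and side of the threshold, 5 newly passed (all Cldn7), 1 no longer passed (Cldn2 within replicates 3 and 4) and 9 changed sign. Cldn2 ranged from -1.28 to -0.60, and from -1.08 to -0.81 when 1 library was left out. Its edgeR adjusted p ran from 8.52e-18, with no filter, to 0.0731, within replicates 3 and 4. With no filter its SE was 0.10, beside 0.17 in the reported setting, so that the smallest p rests on a narrower SE. The sign changes were Cldn4 with library totals (0.078), within replicates 1 and 2 (0.044), without TG replicate 3 (0.0039) or TG replicate 4 (0.0032), without WT replicate 1 (0.068), without both replicates 1 (0.018) and with voom (0.015), Cldn15 with library totals (0.036) and Cldn23 without WT replicate 1 (0.0011). With 1 library left out Cldn4 ranged from -0.125 to 0.068 and Cldn23 from -0.335 to 0.0011. Members called lower were 2 with no filter, where 1337 of 21291 tested genes were lower. They were 2 with DESeq2 and with voom, beside 9.89% and 11.1% of all tested genes. They were 2 with the replicate block and the GC and length offset, beside 1264 of 11917 tested genes. Within replicates 3 and 4 they were 0, beside 0.865%. When 1 library was left out they were 1 to 2, with 2 without WT replicate 2 (9.76% of all tested genes lower). Of all genes, 262 were lower with library totals, 500 were higher and 638 lower within replicates 1 and 2, and 113 higher and 104 lower within replicates 3 and 4. With 1 library left out, calls numbered 485 to 1045 in the higher and 550 to 1183 in the lower direction (533 and 550 without TG replicate 1, 485 and 570 without TG replicate 2). Leaving out both replicates 1, chosen after seeing the data, as was the canonical length, gave 446 and 469. Other junction genes called were 3 higher and 0 lower with library totals, beside 6.6% and 2.2% of all tested genes. They were 3 higher with the GC and length offset, beside 984 of 11917 tested genes. A term for replicates 1 and 2 against 3 and 4 also gave 3 higher, beside 984 of 11929. Within replicates 1 and 2, 0 were lower, beside 5.29%. Within replicates 3 and 4 they were 0 and 0, beside 0.94% and 0.865%. Without both replicates 1 they were 1 and 1. With 1 library left out they were 1 to 7 higher and 1 to 8 lower, beside the calls of all genes given above. The cause of these changes was not tested. Deviations from the group means correlated at r = 0.0762, 0.0666, 0.286 and 0.231 between same-numbered TG and WT libraries. Between differently numbered ones r ran from -0.188 to 0.235. These values do not settle whether the replicate number pairs the libraries. A fit with that number as replicate block called 1039 genes higher and 1164 lower, Cldn2 was at -0.95 (adjusted p = 0.00235), and each member kept its side of the threshold.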
